A study of Macaca mulatta with 24 samples.

Results

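Gene expression on day 12 after total-body irradiation (TBI) was compared with day 7 in whole jejunum of rhesus macaques (Macaca mulatta). The arrays were chosen by their titles, which name jejunum on day 12 (4 arrays, 2 animals at 6.7 Gy and 2 at 7.4 Gy) or on day 7 (8 arrays, 4 at each dose), 12 of the 24 arrays of the series. Each array held RNA of 1 tissue sample from a young-adult male given a single uniform dose of cobalt-60 gamma rays, and no sample was pooled. The other arrays were 8 from day 4 after the same doses and 4 from unirradiated animals, which the labels place at day 4. The day 4 arrays gave 1 value below, and the unirradiated arrays served to set the later levels against an unirradiated one. Both otherwise entered only an alternative model of all 7 groups on 24 arrays. The titles give day 12 as the last time point, whereas a protocol note in the labels gives a different last day, and the titles were followed. No unirradiated animal was sampled on day 7 or day 12, and each animal gave 1 time point.

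The epithelium of the small intestine is renewed from stem cells at the base of the crypts, whose daughters divide, move up the villus as absorptive, goblet or enteroendocrine cells and are shed. Irradiation kills dividing crypt cells, and crypts that keep stem cells then regenerate through a phase of rapid division before the villus epithelium is rebuilt. Damaged cells also switch on targets of p53, the transcription factor that responds to DNA breaks, while loss of the barrier brings cytokines and antimicrobial peptides into play.

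Levels were log2 signals relative to the 75th percentile of the same array, so 0 is a fairly bright probe and a difference of 1 is 2-fold. Of 43603 probes, 28083 (64.4%) were tested, since 1 or more of the 4 groups of dose and day had no array on which they failed to stand well above background, and 17099 met this on all 12. The arrays lay on 6 slides, of which 4 held a day 7 and a day 12 array of the same dose side by side. Background differed between slides: the lowest signal that stood well above it was 160 and 187 on the day 7 and day 12 arrays of slide 5, 52.5 and 40.6 on those of slide 4, and 7.41 to 10.9 on the other 8 arrays. All 4 day 12 arrays lay at position 4 of their slide, as did 2 of the day 7 arrays, with the other 6 at position 3. The arrays on slides 5 and 6 were scanned on scan day 2 and those on the other slides on scan day 1. Scan day 2 thus held both 7.4-Gy day 12 arrays, 7.4-Gy day 7 replicates 1 and 2, and no 6.7-Gy array of these days. The mean correlation of an array with the other 11 ran from 0.953 to 0.976, with the day 12 array on slide 5 lowest.

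Few genes passed the test between the days. With dose as a block, 19 of 28083 probes (0.0677%) differed at a limma adjusted p under 0.05 and at least 2-fold, 11 higher and 8 lower on day 12 than on day 7. The smallest limma adjusted p was 0.00840, for A_01_P1827086, which entered the test only through the 6.7-Gy day 12 arrays, where it was high. The next smallest was 0.0122, for PRDX6 and IL6. At any size, 23 probes had a limma adjusted p under 0.05. Without adjustment, 309 probes were past p of 0.05 and 2-fold, 175 higher and 134 lower. With scan day as a block 3 probes were called, with slide as a fixed block 1 (A_01_P1827086), and with array position as a block 0. On 18 of the 19 called probes the day 12 arrays did not overlap the day 7 arrays. Of all tested probes, 0.844% had every day 12 array higher and 1% had every one lower. The median change of all tested probes was 0.01 log2. Of the 19, 11 carried a gene symbol, and 10 were well above background on all 12 arrays. Of the rest, A_01_P1827086, CCDC181 and A_01_P1787071 entered the test only through a group of the day on which they were higher.

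**Figure D1:**
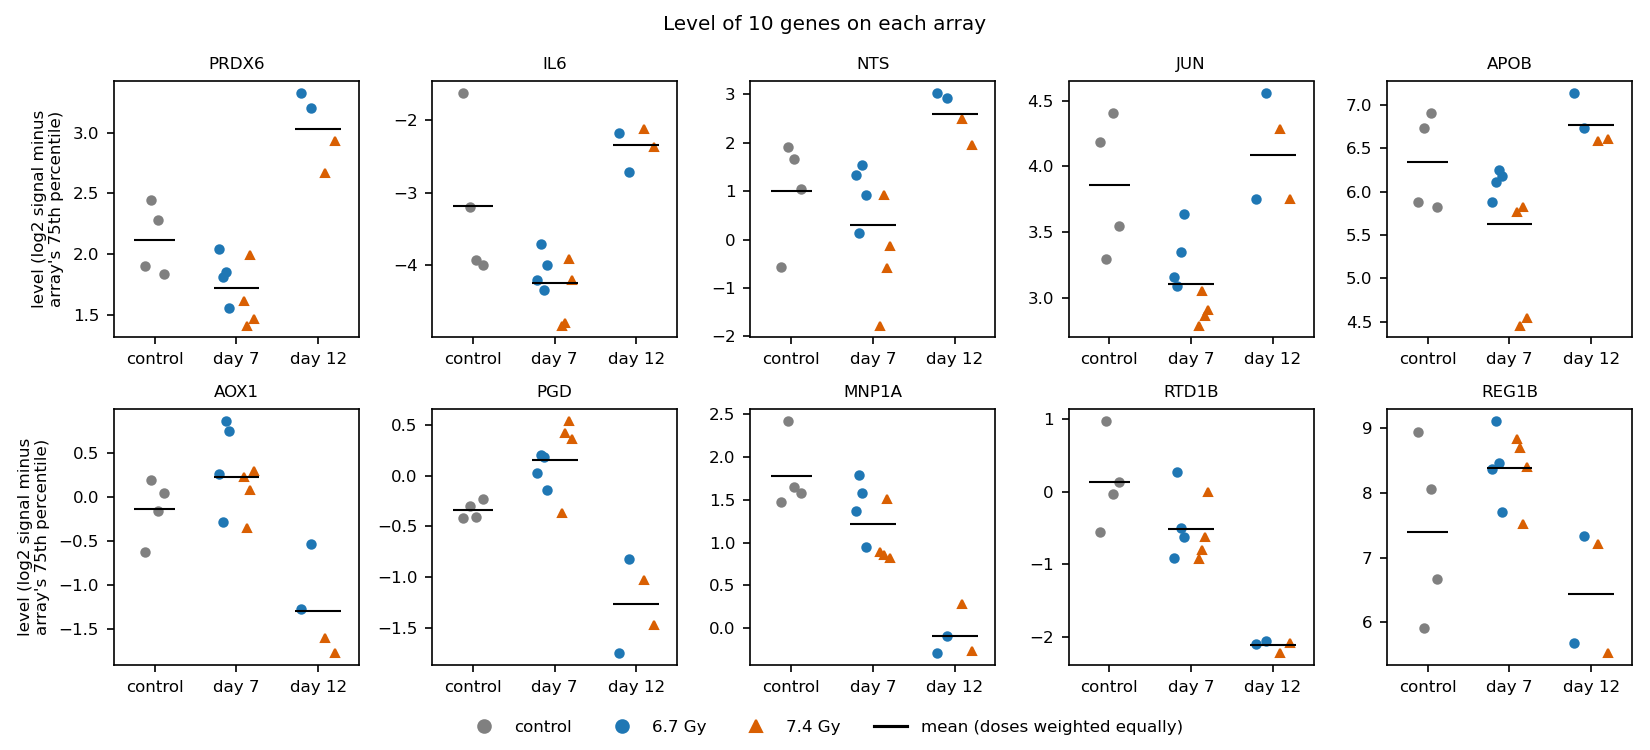
Level (log2 signal minus the 75th percentile of the array) of 10 genes on the control, day 7 and day 12 arrays, each panel with its own axis; grey dots are unirradiated arrays, blue circles 6.7-Gy TBI, orange triangles 7.4-Gy TBI, and the short lines are means with the doses weighted equally. PRDX6 and IL6 lie higher on all day 12 arrays than on any day 7 array, AOX1, PGD, MNP1A and RTD1B lie lower on all of them, and NTS, JUN, APOB and REG1B are separated too but did not pass the test.

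PRDX6, an antioxidant enzyme that reduces peroxides of phospholipids, was up-regulated. Its probe A_01_P000981 had levels of 1.41 to 2.05 with a median of 1.71 on day 7, and of 3.32 and 3.20 (6.7 Gy) and 2.67 and 2.93 (7.4 Gy) on day 12. The rise was 1.31 ± 0.15 log2 (SE, 8 against 4 arrays; 2.48-fold, limma adjusted p = 0.0122). The control arrays, at 1.83 to 2.45, overlapped the day 7 arrays and lay below every day 12 array. The brighter PRDX6 probe, A_01_P1692756, differed by 0.95 ± 0.24 log2 and did not pass (limma adjusted p = 0.189). The call of A_01_P000981 was kept with 9 of the 12 arrays left out in turn and lost without 7.4-Gy day 12 replicate 2 or either 6.7-Gy day 12 array, with a highest limma adjusted p of 0.0892.

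IL6, the cytokine interleukin 6, was up-regulated from a very low level. On day 7 it lay at -4.83 to -3.71 with a median of -4.20, and on day 12 at -2.18 and -2.71 (6.7 Gy) and -2.11 and -2.37 (7.4 Gy). The rise was 1.91 ± 0.22 log2 (3.75-fold, limma adjusted p = 0.0122). The probe was well above background on 7 of 8 day 7 arrays and 3 of 4 day 12 arrays. When every level was held at or above the highest background limit among the 12 arrays, the difference was 0.005 ± 0.004 log2, since 1 of its 12 levels lay above that limit. Control arrays spread widely, at -1.62, -3.20, -3.93 and -4.00. The call was lost without either 7.4-Gy day 12 array or without 6.7-Gy day 12 replicate 1, with a highest limma adjusted p of 0.0892.

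NKAPL, a gene named for its likeness to an activator of NF-kB, rose from between -3.60 and -1.71 on day 7 to -0.58 and -0.91 (6.7 Gy) and -0.70 and -0.67 (7.4 Gy) on day 12. The rise was 1.86 ± 0.27 log2 (limma adjusted p = 0.0359), and all day 12 arrays lay above the control arrays, whose highest level was -1.58. LOC698063, an uncharacterized gene, rose by 1.12 ± 0.16 log2 (limma adjusted p = 0.0359), from -1.70 to -0.94 on day 7 to -0.31 to 0.07 on day 12. A dim probe of UQCRB (A_01_P007004), a subunit of respiratory complex III, rose by 1.73 ± 0.26 log2 (limma adjusted p = 0.0388). The brighter UQCRB probe differed by -0.09 ± 0.14 log2, so the gene's probes disagreed. All 8 day 7 levels of the dim probe lay below the highest background limit among the 12 arrays, and with every level held at or above that limit its difference was 0.61 log2 (limma adjusted p = 0.0903). Only without 7.4-Gy day 7 replicate 1 or 2 were NKAPL and UQCRB still called, LOC698063 also without 7.4-Gy day 7 replicate 4 or 6.7-Gy day 7 replicate 1, and otherwise the limma adjusted p-values reached 0.191.

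Both macaque defensins among the called probes were down-regulated. Defensins are small peptides that kill microbes, made by Paneth cells, neutrophils and other leukocytes. RTD1B, listed as demidefensin 1, a precursor of the cyclic theta-defensins, had levels of -0.92 to 0.27 on day 7 and of -2.09 and -2.05 (6.7 Gy) and -2.22 and -2.08 (7.4 Gy) on day 12. It fell by 1.59 log2 (SE 0.22; 3.01-fold, limma adjusted p = 0.0351). MNP1A, alpha-defensin 1A, had levels of 0.82 to 1.79 on day 7 and of -0.29 and -0.09 (6.7 Gy) and 0.29 and -0.26 (7.4 Gy) on day 12. It fell by 1.31 log2 (SE 0.21; 2.48-fold, limma adjusted p = 0.0471). The lowest control arrays, at -0.55 for RTD1B and 1.47 for MNP1A, lay above every day 12 array. Defensin genes resemble each other in sequence, so which members these probes measured is uncertain. The call of RTD1B was lost without any day 12 array or without day 7 replicate 3 of either dose or replicate 4 at 6.7 Gy. That of MNP1A was lost without any array but 7.4-Gy day 7 replicate 2, with limma adjusted p-values up to 0.204.

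The other named falls were in metabolic enzymes and in 1 gene of uncertain role. AOX1, aldehyde oxidase, which oxidizes aldehydes and nitrogen-containing rings, was called by both of its probes. The first, A_01_P1677866, lay at -0.35 to 0.86 on day 7 and at -1.27 and -0.53 (6.7 Gy) and -1.59 and -1.77 (7.4 Gy) on day 12, a fall of 1.52 log2 (SE 0.23, limma adjusted p = 0.0427). The second, A_01_P1720121, fell by 1.01 log2 (SE 0.15, limma adjusted p = 0.0393). PGD, an enzyme of the pentose phosphate pathway that makes NADPH, fell by 1.42 log2 (SE 0.21; 2.68-fold, limma adjusted p = 0.0359). Its levels were -0.37 to 0.54 on day 7 and -1.75, -0.82, -1.03 and -1.48 on day 12, all below the control arrays at -0.42 to -0.23. CCDC181, a coiled-coil protein, differed by -1.16 ± 0.16 log2 at levels near background (2 of 4 day 12 arrays well above it), and by -0.52 log2 with normexp background correction. It passed the filter only through the 6.7-Gy day 7 arrays, where it was high, and was the called probe whose days overlapped. Its second probe differed by -0.93 ± 0.22 log2. Each of these calls was lost with 9 or 10 of the 12 arrays left out in turn, with limma adjusted p-values up to 0.203. They were kept without 7.4-Gy day 7 replicate 2 and, further, without 6.7-Gy replicate 2 for AOX1, without 7.4-Gy replicate 1 for PGD, and without replicate 1 of either dose for CCDC181, all of day 7.

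The other 8 called probes carried no symbol. A_01_P1672641 was the brightest, at 5.60 to 6.95 on day 7 and 7.46 to 7.83 on day 12. A_01_P1696901 fell furthest, by 2.58 log2 (SE 0.33), from above the control mean on day 7 to below it on day 12. A_01_P1827086 was well above background on 5 of 8 day 7 and 3 of 4 day 12 arrays, so its day 7 level is a reading near background and the size of its rise, fitted at 2.20 ± 0.22 log2, is uncertain.

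Several genes with large differences did not pass the adjusted threshold. NTS, the gut peptide neurotensin, which enteroendocrine cells release after a fatty meal, lay at -1.78 to 1.54 on day 7 with a median of 0.53. Its day 12 levels were 3.02 and 2.93 (6.7 Gy) and 2.49 and 1.96 (7.4 Gy), above every day 7 and every control array. The difference was 2.31 ± 0.42 log2 (4.95-fold, limma adjusted p = 0.0854). NKX6-2, a homeobox transcription factor, differed by 1.57 ± 0.25 log2 (limma adjusted p = 0.0504). TYMP (thymidine phosphorylase, 1.29 log2), DHRS13 (a dehydrogenase, 1.13 log2), LOC722983 (like a subunit of mitochondrial complex I, 1.02 log2), STC2 (stanniocalcin 2, a secreted glycoprotein, 1.01 log2) and the poorly characterized LOC715673 (1.45 log2), LOC716040 (1.18 log2) and LOC703512 (1.07 log2) had limma adjusted p-values from 0.0844 to 0.0864. ZNF347, a zinc finger gene, differed by 1.72 log2 on 1 probe and by 0.62 log2 or less on its other 6, of which 1 had the opposite sign. The brighter TYMP probe differed by 0.49 log2, and the other STC2 probe by -0.44 log2.

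On the lower side, the differences outside the adjusted threshold included several secreted proteins. REG1B, a lectin-like secreted protein of the regenerating-gene family, lay at 7.53 to 9.12 with a median of 8.43 on day 7 and at 5.67 and 7.33 (6.7 Gy) and 7.21 and 5.52 (7.4 Gy) on day 12. The difference was -1.96 ± 0.40 log2 (limma adjusted p = 0.110), with every day 12 array below every day 7 array. Of the day 12 arrays, 2 lay within the range of the controls (5.92 to 8.94) and 2 below it. Its relative LOC716856 differed by -1.83 ± 0.45 log2 and REG1A by -0.84 ± 0.30 log2. DMBT1, a mucosal scavenger receptor that binds bacteria, differed by -1.52 ± 0.40 log2, and LOC723103, annotated as DMBT1-like, by -1.74 ± 0.37 log2. WFDC2, a secreted protease inhibitor, differed by -1.06 ± 0.24 log2. These sequence relatives can share signal. SMCR8, a regulator of autophagy (-1.07 log2), LOC722265 (peptidyl-prolyl isomerase A-like, -1.68 log2) and LOC718873 (archaemetzincin-2-like, 2.00-fold lower) had limma adjusted p-values from 0.173 to 0.205. LOC718873 averaged unlike values, -0.33 log2 at 6.7 Gy and -1.67 at 7.4 Gy, and its days overlapped.

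A probe of GUCY1A3 (A_01_P1692936), a subunit of the nitric oxide receptor guanylate cyclase, had the largest difference of the named genes. It lay at 4.48 to 6.32 on 7 day 7 arrays and at 0.11 on the other, 6.7-Gy replicate 3, whereas on day 12 it lay at 0.04, -1.14, -1.15 and -1.04. The difference of -5.29 ± 0.88 log2 had a limma adjusted p of 0.0623, and of 2.1e-04 without that day 7 array. The other GUCY1A3 probes differed by -0.35 and -0.38 log2, and 1 array from day 4, 6.7-Gy replicate 2, also read low, at -1.28. The probes of this gene therefore did not measure the same change.

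The control arrays separated a return from a new departure. A return was defined as a mean at least 1 log2 from control on day 7 and under 1 on day 12, and a departure as the reverse. Of the 19 called probes, 8 were departures, 9 lay within 1 log2 of control on both days, IL6 was a return and A_01_P1696901 crossed from above control to below it. The place of IL6 rested on control replicate 1, its highest control array: the means lay 1.06 log2 below control on day 7 and 0.84 above it on day 12, and without that array 0.54 below and 1.36 above, which is a departure. The departures with a symbol were NKAPL, UQCRB (its dim probe), RTD1B, MNP1A and the AOX1 probe A_01_P1677866. Among all 511 probes at least 2-fold apart, 230 (45.0%) were departures, 186 (36.4%) were near control on both days and 64 (12.5%) were returns. Departures were no longer the largest class once dim probes were set aside. With only the 108 probes that cleared background on each of the 12 arrays, 48 (44.4%) stayed near control on both days. A further 41 (38.0%) were departures and 17 (15.7%) returns. Day 7 and day 12 were set against the same 4 control arrays, so these counts have no test. A limit of 0.58 log2 gave 13 departures among the called probes, and leaving out each control array in turn gave 7 to 12.

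**Figure D2:**
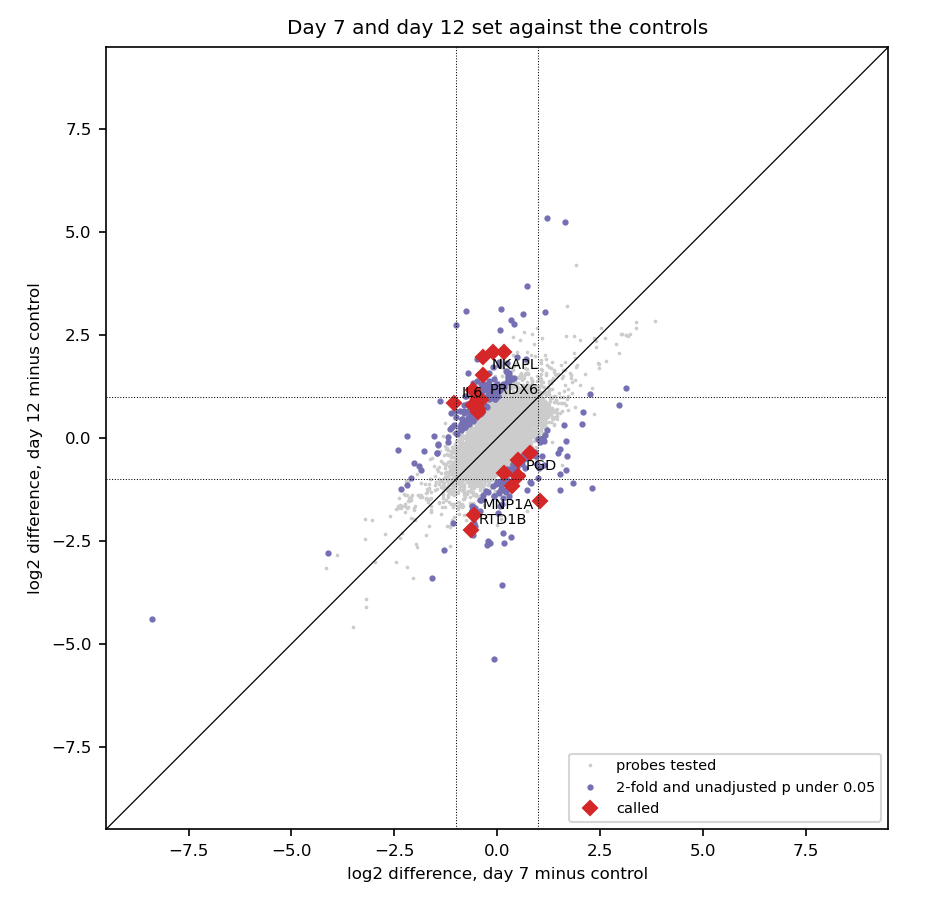
Day 7 minus control (horizontal) against day 12 minus control (vertical), both in log2, with 1 point per probe; red diamonds are the 19 called probes, purple points the probes at least 2-fold apart with an unadjusted p under 0.05, and dotted lines mark 1 log2 on each side of control. Both axes share the control arrays, and the called probes sit mainly above or below the horizontal band or inside the central square, with 1 return, IL6, which becomes a departure without control replicate 1.

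Gene lists were described by the brightest probe of each symbol, of which 11866 were tested. Among all of these, 5.95% were higher and 6.34% lower on day 12 at an unadjusted p under 0.05, with a median change of 0.01 log2. In whole tissue, fewer cells of a type and less RNA per cell cannot be told apart. No list member other than IL6 passed the adjusted threshold. The sign of the median differed between the doses for 16 of the 39 lists, and differences between doses in list medians were not tested.

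Genes of mitosis and G2/M were lower on day 12 in all 16 of the tested members (of 24 fixed), with a median of -0.52 log2 and 8 at an unadjusted p under 0.05. CDC25C, the phosphatase that starts mitosis, differed by -1.15 ± 0.22 log2 (limma adjusted p = 0.0863), from -2.35 to -1.26 on day 7 to -2.64, -3.35, -2.90 and -2.45 on day 12. CDC20, an activator of the anaphase-promoting complex, differed by -0.59 ± 0.14 log2, CCNB1 (cyclin B1) by -0.80 ± 0.19 and the kinetochore motor CENPE by -0.71 ± 0.19. The list median lay 1.1 log2 above control on day 7 and 0.53 above it on day 12. On the 4 slides that held both days the median difference was -1.04, -0.78, -0.41 and -1.02 log2. With array position as a block the median was -0.03 log2, against -0.04 for all tested probes, and 10 of 16 members were lower. CDC25C was then at -0.88 and CDC20 at -0.40 log2, though day 7 had only 2 arrays at the position of the day 12 arrays. CDC25C differed by -0.47 log2 with every level held at or above the highest background limit.

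Genes of DNA replication lay lower in 13 of 15 tested members with a median of -0.25 log2, and 1 member was lower and 1 higher at an unadjusted p under 0.05. These were RFC4, a clamp loader subunit (-0.44 ± 0.17 log2), and RRM2, a subunit of ribonucleotide reductase (0.50 ± 0.21 log2). The replication median was -0.45 log2 at 6.7 Gy and -0.09 at 7.4 Gy, where 10 of 15 members were lower, and on slide 5 it was 0.25. With array position as a block its sign turned, to 0.03 log2 with 7 of 15 members lower. Targets of p53 lay lower in 14 of 18 tested members, with a median of -0.23 log2 and 5 at an unadjusted p under 0.05. DDB2, a sensor of DNA damage, did not overlap between the days, at 2.43 to 3.26 on day 7 and 1.70 to 2.28 on day 12 (-0.76 ± 0.17 log2, limma adjusted p = 0.152). FDXR, ferredoxin reductase, differed by -0.70 ± 0.19 log2 and EDA2R, of the TNF receptor family, by -0.68 ± 0.29. The p53 list median was 0.38 log2 above control on day 7 and 0.21 above it on day 12. Crypt base markers had a median of -0.19 log2 over 8 tested members, 5 lower, and of -0.01 with array position as a block. OLFM4, a secreted protein of crypt base cells, differed by -1.71 ± 0.46 log2 (limma adjusted p = 0.195) and RGMB, a co-receptor for bone morphogenetic proteins, by -0.46 ± 0.16, whereas the stem cell receptor LGR5 differed by 0.22 ± 0.16.

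**Figure D3:**
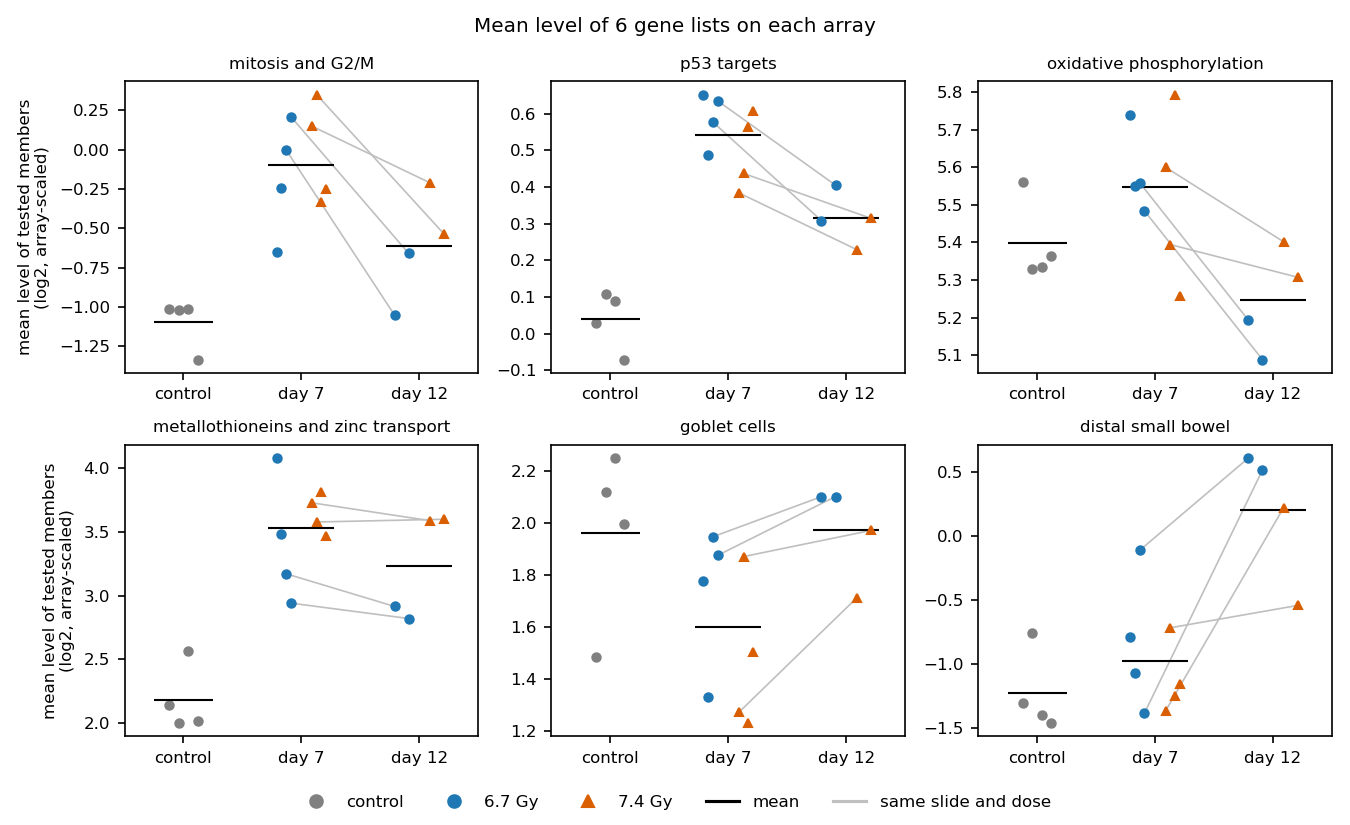
Mean level of the tested members of 6 gene lists (log2 signal minus the 75th percentile) on each control, day 7 and day 12 array; grey lines join arrays of the same slide and dose. Mitosis genes ran from -0.65 to 0.35 on day 7 and from -1.05 to -0.21 on day 12, against -1.33 to -1.01 in controls, and the list of metallothioneins and zinc transporters lay above the control arrays on both days.

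Metallothioneins, which bind zinc and copper, were listed together with zinc transporters. The 7 tested members of this joint list had a median of 2.89 log2 above control on day 7 and 2.29 on day 12, and 6 were lower on day 12 than on day 7, MT3 by a negligible amount, with a median of -0.60 log2. MT3, SLC30A10 and SLC39A4 lay below control on both days and the other 4 above it. The median was -0.87 log2 at 6.7 Gy, with 6 of 7 lower, and -0.30 at 7.4 Gy, with 4 of 7 lower, and 4 of 7 were also lower with slide as a fixed block. MT2A lay at 5.01 to 7.04 on day 7, at 4.75, 4.84, 6.09 and 6.24 on day 12 and at 2.57 to 3.79 in controls (-0.69 ± 0.26 log2, limma adjusted p = 0.319). MT1E and MT1X differed by -0.60 ± 0.23 and -0.70 ± 0.30 log2, though metallothioneins are near copies and their probes may share signal. SLC39A4, the zinc importer of the enterocyte, had the opposite sign (0.65 ± 0.23 log2), from a median of 2.06 on day 7 to 2.96, 2.53, 2.15 and 2.12 on day 12, against 2.93 to 3.81 in controls.

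Subunits of oxidative phosphorylation were lower on day 12 in 17 of 17 tested members (of 23 fixed), with a median of -0.23 log2 and 4 at an unadjusted p under 0.05. The median was -0.29, -0.35, -0.28 and -0.25 log2 on the 4 slides that held both days, and by dose -0.37 at 6.7 Gy and -0.12 at 7.4 Gy, where 14 of 17 members were lower. UQCRC2, a core subunit of complex III, was the member with the smallest p. It lay at 3.66 to 4.16 on day 7 and at 2.62 and 3.00 (6.7 Gy) and 3.49 and 3.24 (7.4 Gy) on day 12 (-0.85 ± 0.16 log2, limma adjusted p = 0.0863), and its other probe differed by -0.89 ± 0.18. NDUFB5 of complex I differed by -0.52 ± 0.11 log2 without overlap. The differences were small, and the list median was 0.14 log2 above control on day 7 and 0.14 below it on day 12.

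Genes of fat absorption and chylomicron assembly were higher on day 12 in 10 of 14 tested members, with a median of 0.27 log2. The median was 0.02 log2 at 6.7 Gy, with 7 of 14 members higher, and 0.38 at 7.4 Gy, with 12 of 14. APOB, the structural protein of chylomicrons, lay at 4.46 to 6.25 on day 7 with a median of 5.85, and at 7.13 and 6.73 (6.7 Gy) and 6.58 and 6.60 (7.4 Gy) on day 12. The difference was 1.14 ± 0.27 log2 (2.20-fold, limma adjusted p = 0.163), and its other probe differed by 0.76 ± 0.41. AGPAT2, an enzyme of triglyceride synthesis, differed by 0.65 ± 0.22 log2. Brush border genes for digestion and for sugar and peptide uptake were higher in 10 of 13 members with a median of 0.23 log2, led by the peptidases ENPEP (0.66 ± 0.18 log2) and ANPEP (0.79 ± 0.26 log2). At 6.7 Gy their median was -0.02 log2 with 7 of 13 members lower, and at 7.4 Gy it was 0.51 with 12 of 13 higher. Both lists lay below control on day 7, by medians of 0.38 and 0.55 log2, and by 0.03 and 0.32 log2 on day 12. The separate list of absorptive enterocyte markers had a median of 0.02 log2, with 4 of 8 members higher, at -0.19 log2 in the 6.7-Gy and 0.24 in the 7.4-Gy arrays.

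The list named for the distal small bowel was higher on day 12 in 7 of 7 tested members, with a median of 0.55 log2 and 3 at an unadjusted p under 0.05. FABP6, which carries bile acids inside ileal enterocytes, differed by 3.60 ± 1.00 log2 (limma adjusted p = 0.205) with much spread. It lay at 5.29 and 5.00 on the 6.7-Gy day 12 arrays, at 1.22 and 0.95 on the 7.4-Gy arrays, at -2.05 to 3.22 on day 7 and at -2.70 to -1.25 in controls, so the days overlapped while every day 12 array lay above every control array. SLC10A2, the ileal bile acid importer, was high on 1 day 12 array (-0.29, 7.4-Gy replicate 1) and at -5.23 to -3.44 on the others. GUCA2B, the peptide uroguanylin, differed by 0.97 ± 0.25 log2 but was bright in control jejunum too, at 4.56 to 5.51. It therefore does not mark the distal bowel here. Where along the bowel each sample was taken was not tested. Bile acid uptake and sensing as a whole had 7 of 8 members higher and a median of 0.22 log2 (4 of 8 higher at 6.7 Gy and 6 of 8 at 7.4 Gy), sharing FABP6, SLC10A2, SLC51B and FGF19 with the distal list.

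**Figure D4:**
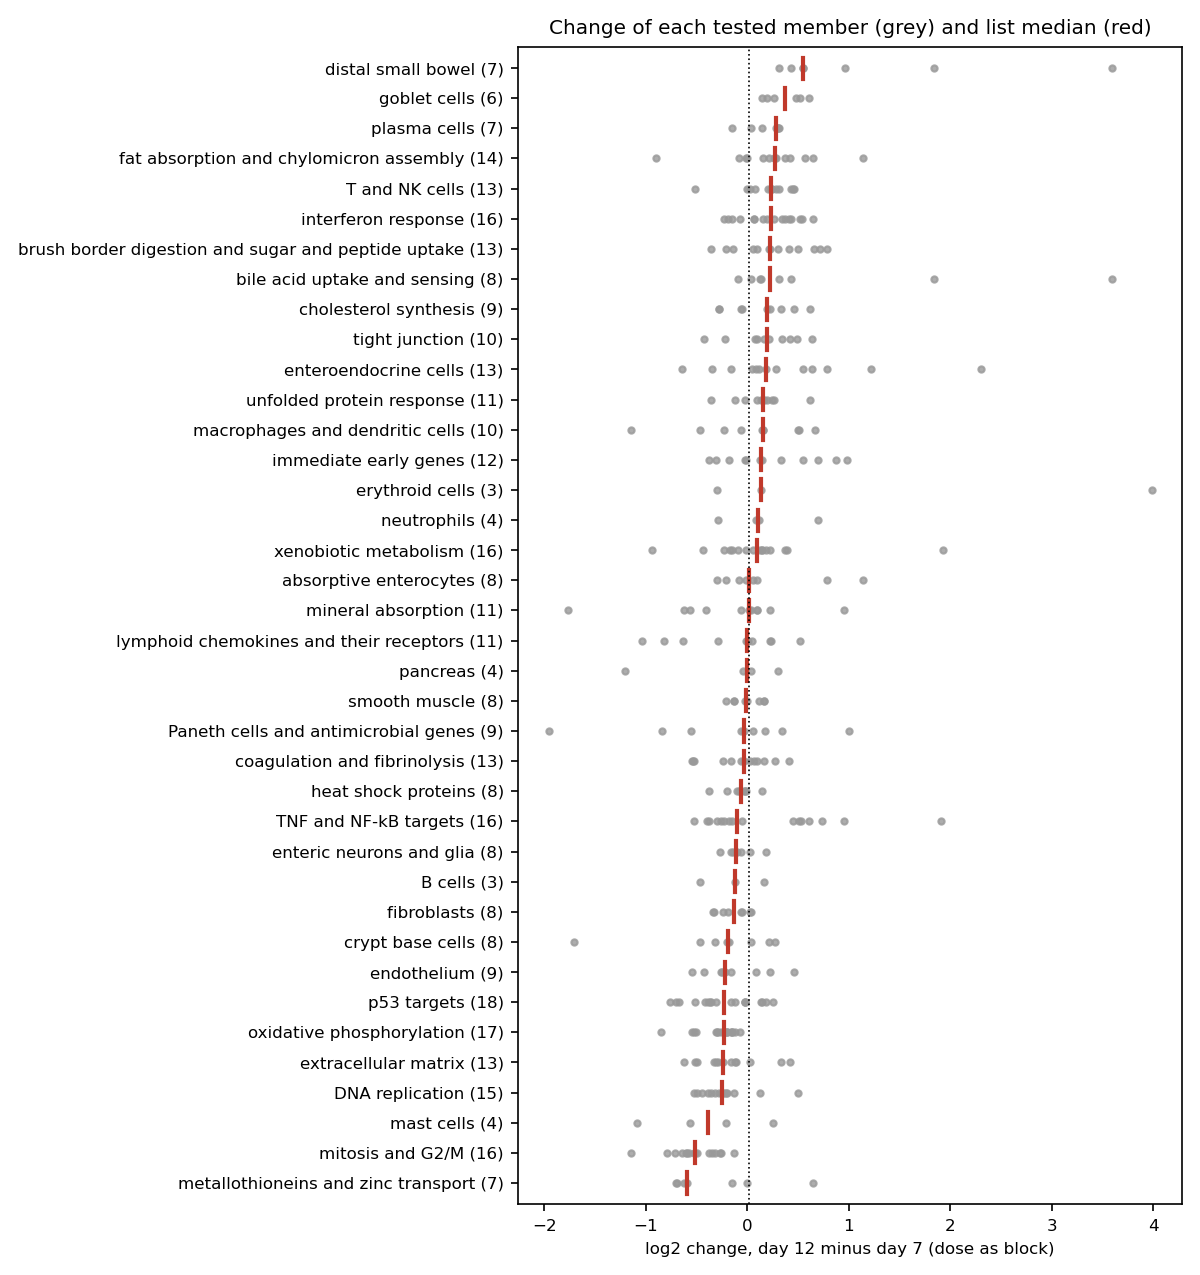
Change from day 7 to day 12 (log2, horizontal) of the tested members of each gene list with at least 3 of them; grey dots are genes, red marks list medians, and the dotted line is the median of all tested probes. All tested members lie to the left in mitosis and G2/M and in oxidative phosphorylation, and to the right in the goblet cell and distal small bowel lists.

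Mineral absorption was mixed, with 6 of 11 members higher, and 4 lower and 1 higher at an unadjusted p under 0.05. SLC11A2, the iron importer DMT1, differed by -0.62 ± 0.16 log2, and S100G, the calcium carrier calbindin of enterocytes, by -1.76 ± 0.61 log2. By dose the S100G difference was -3.00 log2 at 6.7 Gy and -0.52 at 7.4 Gy, from 6.40 to 9.14 on day 7 to 6.23 and 4.21 (6.7 Gy) and 7.30 and 7.22 (7.4 Gy) on day 12, against 7.85 to 9.22 in controls. CYBRD1, the ferric reductase of the brush border, differed by 0.95 ± 0.34 log2. Cholesterol synthesis had 5 of 9 members higher and a median of 0.20 log2 (-0.21 at 6.7 Gy and 0.34 at 7.4 Gy), with MVD at -0.28 ± 0.14 and STARD4 at 0.62 ± 0.36 log2 (-0.03 and 1.26). Xenobiotic metabolism had 9 of 16 members higher and a median of 0.09 log2, with UGT3A1, a glycosyltransferase, at 1.93 ± 0.89 log2 (3.52 at 6.7 Gy and 0.33 at 7.4 Gy) and CYP1B1, a cytochrome P450 induced through the aryl hydrocarbon receptor, at 0.40 ± 0.35 (1.01 and -0.21). Tight junction genes were higher in 8 of 10 members with a median of 0.19 log2, with the claudins CLDN4 (0.49 ± 0.15 log2) and CLDN2 (0.63 ± 0.22 log2) leading and both still below control on average.

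Goblet cell markers were higher in 6 of 6 tested members (of 11 fixed), with a median of 0.38 log2 and 3 at an unadjusted p under 0.05. ZG16, a lectin of mucus, lay at 6.83 to 7.71 on day 7 and at 8.09, 8.21, 7.89 and 8.10 on day 12 (0.61 ± 0.15 log2, limma adjusted p = 0.189). CLCA1, a protease of mucus, differed by 0.52 ± 0.21 log2 on its brightest probe and by 0.05 on its other, and ATOH1, the transcription factor of secretory cells, by 0.48 ± 0.21. Enteroendocrine markers were higher in 10 of 13 members with a median of 0.18 log2 and 4 at an unadjusted p under 0.05. Beside NTS these were NEUROD1, a transcription factor of endocrine cells (0.64 ± 0.13 log2, no overlap, limma adjusted p = 0.110), TPH1, the enzyme of serotonin synthesis (0.78 ± 0.26), and the incretin GIP (1.22 ± 0.48). The list median stood 0.02 log2 above control on day 7 and 0.48 on day 12. Paneth cell and antimicrobial genes had 4 of 9 members higher and a median of -0.03 log2, and REG1B and REG1A were the members with the smallest p.

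Inflammatory and stress lists had small medians. TNF and NF-kB targets had 7 of 16 members higher and a median of -0.10 log2 (0.08 at 6.7 Gy and -0.27 at 7.4 Gy), and all 5 members past an unadjusted p of 0.05 were higher. Beside IL6 they were RELB, a subunit of NF-kB (0.95 ± 0.24 log2), TNFAIP3 (0.53 ± 0.18; 0.84 at 6.7 Gy and 0.21 at 7.4 Gy) and NFKBIA (0.60 ± 0.23; 1.1 and 0.11), which restrain NF-kB, and the adhesion molecule ICAM1 (0.45 ± 0.16). All RELB levels lay below the highest background limit among the 12 arrays. Of the 16 TNF and NF-kB members, 6 stood well above background on all 12 arrays. Immediate early genes had 7 of 12 members higher and a median of 0.14 log2. JUN, a subunit of AP-1, lay at 2.79 to 3.64 on day 7 and at 3.75 and 4.56 (6.7 Gy) and 4.29 and 3.75 (7.4 Gy) on day 12, a difference of 0.98 ± 0.18 log2 without overlap (1.97-fold, limma adjusted p = 0.0854). DUSP1, a phosphatase that turns off MAP kinases, differed by 0.70 ± 0.18 log2. JUN and DUSP1 lay below control on day 7, by 0.75 and 0.67 log2, and 0.23 and 0.03 above it on day 12.

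Interferon response genes had 12 of 16 members higher and a median of 0.23 log2 (0.04 at 6.7 Gy and 0.68 at 7.4 Gy) with none at an unadjusted p under 0.05. DDX58, a sensor of viral RNA, differed by 0.65 ± 0.40 log2 and IRF7 by 0.51 ± 0.33, and the list median on the 4 slides was 0.46, -0.41, 2.05 and -0.78 log2. Every DDX58 level lay below the highest background limit among the 12 arrays. Lymphoid chemokines and their receptors had 6 of 11 members higher, with CXCL12 at -0.82 ± 0.24 and LTB at -0.63 ± 0.25 log2. The unfolded protein response had 8 of 11 members higher and a median of 0.15 log2, with the chaperone HSPA5 at 0.61 ± 0.24 and DDIT3 at 0.24 ± 0.14. Heat shock proteins had 7 of 8 members lower and a median of -0.06 log2, with DNAJA1 at -0.38 ± 0.17 and HSP90AA1 at -0.20 ± 0.17.

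No marker of blood and immune cells passed the adjusted threshold. At an unadjusted p under 0.05, 3 of 10 macrophage and dendritic cell genes were higher and 1 lower. At the same limit, 2 of 4 mast cell genes and 1 of 13 T and NK cell genes were lower. The platelet gene and 1 of 4 neutrophil genes were higher. Over all symbols the shares were 5.95% higher and 6.34% lower. Macrophage and dendritic cell genes had 6 of 10 members higher and a median of 0.15 log2 (0.40 at 6.7 Gy and -0.18 at 7.4 Gy), with the complement genes C1QC and C1QA at 0.67 ± 0.18 and 0.50 ± 0.14 and SPP1, osteopontin, at -1.14 ± 0.50 log2. T and NK cell genes were higher in 11 of 13 members with a median of 0.24 log2, with the kinase ZAP70 at -0.52 ± 0.21 and PRF1, perforin, at 0.43 ± 0.23. Plasma cell genes were higher in 6 of 7 members with a median of 0.29 log2, with SDC1 at 0.29 ± 0.21 and IGJ at 0.30 ± 0.30, and lay 0.65 and 0.59 log2 below control on day 7 and day 12. B cell genes (3 tested, CD79B 0.16 ± 0.14, FCER2 -0.46 ± 0.44, median -0.12 log2) and neutrophil genes (4 tested, CSF3R 0.70 ± 0.23, MMP9 -0.29 ± 0.34, median 0.10 log2) left little to compare. Mast cell genes had 3 of 4 members lower and a median of -0.39 log2 (0.15 at 6.7 Gy and -0.82 at 7.4 Gy), with CPA3, a granule protease, at -1.09 ± 0.41 (-0.08 and -2.10) and HDC, which makes histamine, at -0.56 ± 0.21. Every HDC level lay below the highest background limit among the 12 arrays. Platelets were represented by GP9 alone (0.50 ± 0.14 log2, no overlap).

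HBB, the beta chain of hemoglobin, which marks red cells in the tissue, read 3.99 ± 0.70 log2 higher on day 12, outside the adjusted threshold. It lay at -7.15 to -4.28 on day 7, at -2.50, -2.97, -2.16 and 0.70 on day 12 and at 1.54 to 3.78 in controls. It was well above background on 4 of 8 day 7 arrays and 3 of 4 day 12 arrays, so the day 7 level is a reading near background, and it entered the test only through the 6.7-Gy day 12 arrays. With every level held at or above the highest background limit among the 12 arrays, the difference was 0.71 log2 (limma adjusted p = 0.634). HBA2 on its brightest probe differed by 0.13 ± 0.20 and AHSP by -0.30 ± 0.29 log2, so the 3 tested erythroid genes did not share a direction.

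Most lists of the deeper wall had medians of opposite sign at the 2 doses. Slides of the same dose that held both days often differed in sign too. Smooth muscle had a median of -0.01 log2 (8 tested, ACTA2 0.16 ± 0.23, DES 0.12 ± 0.17), with 8 of 8 members higher at 6.7 Gy (median 0.16) and 7 of 8 lower at 7.4 Gy (median -0.10). On the slides with both days its median was 0.03 and -0.74 at 6.7 Gy and -0.64 and 0.35 at 7.4 Gy. Fibroblast genes had a median of -0.13 log2 (8 tested, DCN -0.34 ± 0.34, PDGFRB -0.19 ± 0.24), at 0.02 in the 6.7-Gy arrays and -0.30 in the 7.4-Gy arrays, where 8 of 8 were lower. By slide the fibroblast median was 0.26 and -0.69 at 6.7 Gy and 0.78 and -0.58 at 7.4 Gy. Enteric neurons and glia had a median of -0.11 log2 (8 tested, SOX10 0.18 ± 0.12, GAP43 -0.10 ± 0.13), at 0.13 and -0.33 for the lower and the higher dose. Their slide medians were -0.18 and -0.56 at 6.7 Gy and -0.77 and 0.23 at 7.4 Gy. No member of these 3 lists had an unadjusted p under 0.05. Extracellular matrix genes had 10 of 13 members lower and a median of -0.23 log2, with COL6A1 at -0.52 ± 0.29 and MMP2 at -0.49 ± 0.29, or -0.29 without 7.4-Gy day 7 replicate 4. Their median was 0.07 log2 at 6.7 Gy and -0.55 at 7.4 Gy, where 11 of 13 were lower. The slide medians were 0.47 and -0.84 at 6.7 Gy and 0.36 and -0.70 at 7.4 Gy. Endothelial genes had a median of -0.22 log2 over 9 members (0.03 at 6.7 Gy and -0.29 at 7.4 Gy), with the receptor KDR at -0.42 ± 0.29 (0.07 and -0.92). Coagulation and fibrinolysis genes had a median of -0.03 log2 over 13 members, with VWF, shared with the endothelial list, at -0.54 ± 0.22 and TFPI at -0.52 ± 0.24. At 6.7 Gy 10 of these 13 were higher (median 0.26 log2) and at 7.4 Gy 12 of 13 were lower (median -0.33 log2). Pancreatic genes, which would mark tissue from next to the gut, had a median of 0.00 over 4 members (0.35 at 6.7 Gy and -0.44 at 7.4 Gy), with the digestive proenzymes CPB1 at -1.20 ± 0.40 and CTRB1 at 0.30 ± 0.28. All 8 tested enterocyte markers, all 8 of smooth muscle and all 13 of extracellular matrix stood well above background on each of the 12 arrays, which covers mucosa and muscle wall but does not tell jejunum from other bowel segments.

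The change from day 7 to day 12 was also compared between the doses. No probe differed between the doses by limma's interaction term (0 at an adjusted p under 0.05, smallest 0.986), and 841 had an unadjusted p under 0.05. The interaction was not fitted with scan day as a block, although scan day was partly tied to dose. Without 7.4-Gy day 12 replicate 2 the count was 51, without replicate 1 of either dose on day 12 it was 1, and without any other array it was 0. Leaving out a day 12 array leaves 1 array at that dose and day, which is assumed to vary like the other groups. For the 19 called probes the change at 7.4 Gy minus that at 6.7 Gy ran from -0.45 (AOX1, A_01_P1677866) to 0.61 log2 (MNP1A). The values were 1.45 log2 at 6.7 Gy and 1.18 at 7.4 Gy for PRDX6, and 1.62 and 2.19 for IL6. The 19 probes were called by a fit without a dose-by-day term, which favours probes that change alike at both doses.

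The 19 calls depended on single arrays. Leaving out 1 day 12 array left 2 calls (without either 6.7-Gy array or without 7.4-Gy replicate 1) or 0 (without 7.4-Gy replicate 2). Leaving out 1 day 7 array left 13, 9, 7 and 3 calls for 6.7-Gy replicates 1 to 4 and 19, 44, 6 and 8 for 7.4-Gy replicates 1 to 4.

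**Figure D5:**
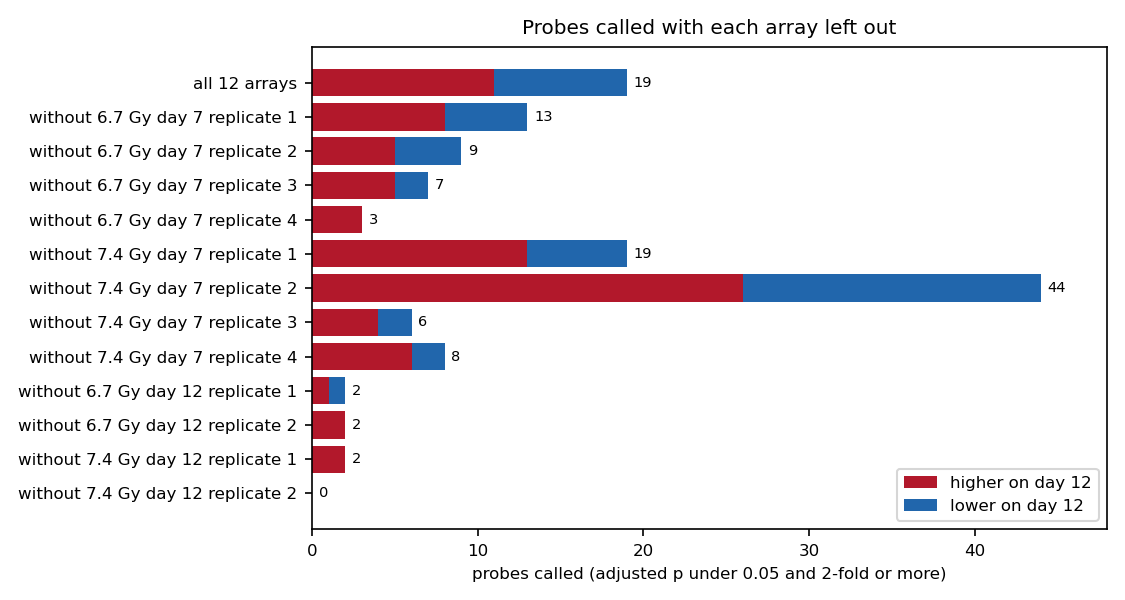
Number of called probes (adjusted p under 0.05 and at least 2-fold), higher and lower on day 12 as stacked bars, with all 12 arrays and with each array left out. The count of 19 fell to between 0 and 2 without any 1 day 12 array and reached 44 without 7.4-Gy day 7 replicate 2.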

How the data were processed

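RNA of whole jejunum was labelled with Cy3 and hybridized to Agilent rhesus macaque 4x44K arrays, 1 sample per array. Per the file headers, the authors scanned the arrays and extracted background-subtracted intensity values with Agilent Feature Extraction 11.0.1.1 (grid annotated on rheMac2). Their second file, deposited as log2 values from GeneSpring, was scaled to the 75th percentile and centred on each row's median, and was used as an alternative and for gene symbols.

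Without control spots, and with repeat spots averaged, there were 43603 probes. Levels were log2 of the processed signal minus the array's 75th percentile. Day 12 was compared with day 7 in limma 3.58.1 (R 4.3.3; lmFit and eBayes) with dose as a block on 12 arrays, p-values adjusted by Benjamini-Hochberg over 28083 probes, and called at an adjusted p under 0.05 and 2-fold, the limits of the study. The script was tested on simulated data. The arrays are separate animals per the study, and their number limits the precision. No saturated spot was found.

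The genes named are the called probes with a symbol; up to 12 a direction, filled with the smallest p among probes with a symbol that were 2-fold apart, measured on all 12 arrays and in the same direction at both doses; and the 2 members with the smallest p of each list. Some further list members (CCNB1, CENPE, EDA2R, LGR5, MT1E, MT1X, CYBRD1, ATOH1, TPH1, GIP, TNFAIP3, NFKBIA, ICAM1, SPP1, HBA2) were named after their values were seen. The comparison, gene lists and rules were chosen with earlier results of these data known. Some genes that these rules pick are not reported here, and the members with the next smallest p stand in their place. Alternatives covered scaling, background (normexp on the median signal, offset 50), dim probes, slide, position, scan day, the replicate block, models and each array left out; the common floor and the settings without slides 4 and 5 were chosen after seeing the data. No sequences or coordinates were used.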

Additional observations from a re-analysis of the deposited data

Results flagged for a closer look

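Among the named genes, 108 sets of day 7 arrays and 108 of day 12 arrays were examined for an array far from the others, measured as its gap to the nearest array over the whole range. This picked out 9 and 6 sets, on 4 day 7 and 3 day 12 arrays, against about 1 in 20 sets by chance. On day 7, 7.4-Gy replicate 4 stood apart for 5 genes, being highest for FCER2 (0.532), VWF (0.544), MMP2 (0.681) and PDGFRB (0.589) and lowest for ZG16 (0.555). Other day 7 arrays apart were 6.7-Gy replicate 3 for GUCY1A3 (lowest, 0.703), 7.4-Gy replicate 1 for CD79B (lowest, 0.574) and AHSP (highest, 0.772), and 6.7-Gy replicate 1 for GP9 (lowest, 0.559). On day 12, 6.7-Gy replicate 1 was highest for STC2 (0.856) and GUCY1A3 (0.904), 6.7-Gy replicate 2 was lowest for DDX58 (0.885) and GAP43 (0.861) and highest for GP9 (0.858), and 7.4-Gy replicate 1 was lowest for AHSP (0.872). No cause was tested.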

How the results depend on the processing

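The 19 calls became 0 with no filter on dim probes, 0 on the 4 slides with both days, 0 with array position as a block, 1 with slide as a fixed block and 36 with slide as a random block (all 19 included). They became 3 with scan day as a block, 6 with 6.7-Gy arrays alone, 1 with 7.4-Gy arrays alone, 9 by the methods' t-test (all among the 19) and 6 with 1 probe per symbol. A model of all 7 groups on 24 arrays gave 27 calls, with 12 of the 19 among them. Chosen after seeing the data, a common floor gave 11 calls, leaving out slide 5 gave 10 and leaving out slides 4 and 5 gave 1. With 1 array left out the count ran from 0 to 44. The replicate block gave 0 calls (353 at 2-fold and an unadjusted p under 0.05); same-numbered arrays within a dose correlated at 0.16, -0.01, 0.33 and 0.08 in their deviations, so the numbers were not taken to pair animals. Quantile normalization called 9 higher and 10 lower, the percentile over probes measured on all 12 arrays 11 and 5, and normexp 12 and 5, against 11 and 8. The dose interaction, 0 calls, ran from 0 to 51 with 1 array left out; without a day 12 array 1 arm has 1 array, assumed to vary like the others. A limit of 0.58 log2 gave 13 departures.

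List medians kept their sign in all 35 settings for 14 of 39 lists, including mitosis and G2/M, p53 targets, metallothioneins and zinc transport, oxidative phosphorylation, goblet cells and distal small bowel. The mitosis median shrank to -0.03 log2 with position as a block, where the median of all tested probes was -0.04. Of 70 list genes, 12 changed sign at least once. With position as a block CD79B was -0.0500, HSP90AA1 0.0720, CTRB1 -0.0241, ACTA2 -0.140 and DES -0.124 log2. With 6.7-Gy arrays alone STARD4 was -0.0258, KDR 0.0696, AHSP 0.0825 and MMP9 0.136, and with 7.4-Gy arrays alone DES was -0.0636 and CYP1B1 -0.214. With the replicate block PDGFRB was 0.00023 and IGJ -0.0657. AHSP was 0.115 without slide 5 and 0.141 without slides 4 and 5. The cause of these shifts was not tested. High background on slides 4 and 5 limits what dim probes such as IL6 and HBB can show, and 4 day 12 arrays limit the precision of every value.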
